A study of Mus musculus with 18 samples.

Results

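Of the 42403 regions bound by GATA6 in differentiating mouse embryonic stem (ES) cells, 533 combined transient GATA6 binding, ectopic recruitment of pluripotency transcription factors (PTFs) and SOX17 binding. These 533 regions were selected on 3 deposited classes. Their GATA6 signal over the time course fell into the Transient cluster, which held 16285 regions. Their PTF peaks, of OCT4, SOX2 or ESRRB, were called only after induction (ectopic, 7038 regions), and a SOX17 peak was called (18861 regions). The cells were of the KH2 line, on a C57BL/6 x 129/Sv background, and all of them, controls included, carried a cassette from which doxycycline (Dox) drives Gata6. They were grown on inactivated mouse embryonic fibroblasts with LIF and serum. The series holds 18 MNase-seq libraries in 6 groups of 3 replicates, namely untreated cells (d0) and cells after 8, 16, 24, 48 and 96 h of 1 ug/mL Dox. No column of the deposited table that was used holds a value of these libraries, so no sample-by-sample value could be given and their depth is unknown here. The regions themselves were therefore the units, and what was compared is their DNA sequence, their chromatin before Dox, their place in the genome and their response to Oct4 knockdown, none of which entered the selection.

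GATA6 is a zinc finger transcription factor that binds GATA sequences and drives primitive endoderm (PrE), the extraembryonic lineage that lines the blastocoel and later forms the yolk sac. SOX17 is an HMG box factor of the endoderm that binds ATTGT-like sequences, and OCT4 and SOX2 are the core pair of the pluripotency network, while ESRRB is an orphan nuclear receptor of naive ES cells. OCT4 and SOX2 bind together to a composite motif in which a SOX site and an octamer site are separated by a spacer base, whereas SOX17 is known to pair with OCT4 preferentially on a compressed version of it, in which the sites touch.

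An arrangement of this kind has the SOX and OCT parts of the OCT4:SOX2 matrix directly adjacent. It was more frequent in the 533 regions than in each of the 3 classes they were tested against. Late regions with ectopic PTFs and SOX17 were not among those classes. The 4 regions with the highest score for the adjacent arrangement are given here, each by the gene with the nearest transcript start, with 61 bases on the plus strand of GRCm38 (mm10). The capitals mark the 14 bases of the SOX part and the OCT part. In D430041D05Rik and Cadm2 the match lies on the minus strand and the capitals read OCT part first. These 4 regions were chosen after their values were seen.
D430041D05Rik chr2:104207166-104207226: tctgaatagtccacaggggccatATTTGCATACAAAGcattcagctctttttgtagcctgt
Thbs1 chr2:118100414-118100474: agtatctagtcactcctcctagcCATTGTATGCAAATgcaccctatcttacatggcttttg
Cadm2 chr16:67665780-67665840: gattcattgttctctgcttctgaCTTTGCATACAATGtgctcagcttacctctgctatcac
Ppp1r3b chr8:35388551-35388611: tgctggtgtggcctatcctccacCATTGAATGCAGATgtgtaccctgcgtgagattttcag

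Read on the strand of the match, the capitals were CTTTGTATGCAAAT near D430041D05Rik with a score of 22.3, CATTGTATGCAAAT near Thbs1 with 22.0, CATTGTATGCAAAG near Cadm2 with 20.5 and CATTGAATGCAGAT near Ppp1r3b with 19.9. The D430041D05Rik region lay in an intron of that gene, 34.0 kb from the nearest transcript start, and was closed at d0. The Thbs1 region lay 11.4 kb upstream of Thbs1, which encodes the matrix protein thrombospondin 1, in an intron of a transcript that is not protein-coding. The Cadm2 region lay between genes 44.9 kb upstream of Cadm2, a cell adhesion gene, and the Ppp1r3b region between genes 11.9 kb downstream of the transcript start of Ppp1r3b, which encodes a glycogen-targeting subunit of protein phosphatase 1. Of these 4, the Ppp1r3b region was the one in which GATA6 binding decreased after Oct4 knockdown. It also held an OCT4:SOX2 motif in the usual spacing, with a score of 14.3.

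The next windows show how the motifs lay at the summit, the base with the most GATA6 signal. Capitals mark the best GATA6, SOX17 and OCT4:SOX2 motif of the window. Nedd1, Car8 and Shank2 had the highest summed score among windows with all of these motifs and Rd3 and Gpx5 had the best GATA6 motif among regions whose GATA6 binding decreased and increased after Oct4 knockdown. Klf4 and Klf5 were the listed pluripotency genes with a region nearest to their transcript start. Each is on the plus strand of GRCm38, spans the summit and 100 bases to either side, and is named by the gene with the nearest transcript start.
Nedd1 chr10:92246865-92247065: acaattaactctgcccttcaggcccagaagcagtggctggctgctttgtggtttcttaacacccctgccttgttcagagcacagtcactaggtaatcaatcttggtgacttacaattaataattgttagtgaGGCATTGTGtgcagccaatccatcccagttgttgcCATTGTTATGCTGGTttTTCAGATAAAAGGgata
Car8 chr4:8010319-8010519: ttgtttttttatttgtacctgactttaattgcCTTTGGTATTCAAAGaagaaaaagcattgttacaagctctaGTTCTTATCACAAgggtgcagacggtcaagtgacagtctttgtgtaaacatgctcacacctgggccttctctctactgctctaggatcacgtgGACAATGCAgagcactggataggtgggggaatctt
Shank2 chr7:144040093-144040293: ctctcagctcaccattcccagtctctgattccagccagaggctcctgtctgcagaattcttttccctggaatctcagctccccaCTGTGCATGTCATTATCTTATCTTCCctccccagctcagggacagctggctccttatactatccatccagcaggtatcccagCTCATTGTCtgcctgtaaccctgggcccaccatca
Rd3 chr1:191946909-191947109: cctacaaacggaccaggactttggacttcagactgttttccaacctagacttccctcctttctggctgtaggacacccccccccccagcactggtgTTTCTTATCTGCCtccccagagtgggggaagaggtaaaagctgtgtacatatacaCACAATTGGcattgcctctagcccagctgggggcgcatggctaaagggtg
Gpx5 chr13:21279245-21279445: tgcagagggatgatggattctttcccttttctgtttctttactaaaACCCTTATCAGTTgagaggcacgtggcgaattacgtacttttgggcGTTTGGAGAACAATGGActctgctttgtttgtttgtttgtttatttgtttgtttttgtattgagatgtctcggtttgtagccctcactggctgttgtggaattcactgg
Klf4 chr4:55532487-55532687: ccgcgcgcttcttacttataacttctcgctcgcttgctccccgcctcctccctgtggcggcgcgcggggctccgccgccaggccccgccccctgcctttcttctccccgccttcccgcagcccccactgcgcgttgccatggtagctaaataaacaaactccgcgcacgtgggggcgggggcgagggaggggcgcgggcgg
Klf5 chr14:99298422-99298622: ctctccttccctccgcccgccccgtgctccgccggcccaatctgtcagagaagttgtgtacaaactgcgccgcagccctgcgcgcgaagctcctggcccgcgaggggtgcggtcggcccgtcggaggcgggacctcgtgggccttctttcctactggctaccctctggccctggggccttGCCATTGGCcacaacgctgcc

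In the Nedd1 window, within an intron of a transcript that is not protein-coding and 470 kb from the Nedd1 start, a SOX17 motif (score 10.5), an OCT4:SOX2 motif (14.8) and a GATA6 motif (9.68) followed each other in that order. The Car8 window, between genes, had the OCT4:SOX2 motif first (11.5), then GATA6 (11.2) and SOX17 (11.3). In the Shank2 window, in an intron of that gene, the OCT4:SOX2 motif (6.72) and the GATA6 motif (14.3) overlapped and form 1 run of capitals, with the SOX17 motif (12.8) apart. These 3 regions were closed at d0, and their GATA6 binding did not pass the threshold for a response to Oct4 knockdown. The Rd3 window held the highest GATA6 score of all 533 regions, 15.2, located 2 bases from the summit, and a SOX17 motif of 9.0. In the Gpx5 window the OCT4:SOX2 motif (7.85) and the SOX17 motif (9.77) overlapped and form 1 run of capitals, so they share bases. The Klf4 window held none of the motifs searched.

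Widths and neighbours were not selected on but come from the same GATA6 libraries as the selection, so they are described without a test. The 533 regions had a median width of 557 bp (range 213 to 1970). Regions of the classes next to them had medians of 516 bp (Transient, ectopic PTF, no SOX17, 756 regions), 497 bp (Transient, no PTF, SOX17, 750 regions) and 833 bp (Early, ectopic PTF, SOX17, 3725 regions, where Early stands for regions bound early and throughout). These classes differ from the 533 in 1 of the 3 selecting columns each and are the comparison classes below. Late regions with ectopic PTFs and SOX17 (1259) and Transient regions with PTFs from d0 and SOX17 (1348) also differ in 1 column. They were not tested against the 533. Another GATA6 region lay within 10 kb of 302 of the 533 (56.7%), and an Early region within 10 kb of 137 (25.7%). The nearest other region was Transient for 244, Early for 177 and Late for 112. The selecting columns hold class names and no numeric threshold, so there are no values just inside or outside it.

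Differences between classes were tested in a least-squares fit across all 42403 regions with a level for each of the 18 class combinations and standard errors clustered by chromosome (called the clustered fit). P-values were two-sided and adjusted by the Benjamini-Hochberg procedure over 75 contrasts. Of the 25 measures, 10 differed from Transient regions with ectopic PTFs but no SOX17, 8 from Transient regions with SOX17 but no PTFs and 16 from Early regions with ectopic PTFs and SOX17, at an adjusted p of 0.05. The 95% intervals of shares are Wilson intervals, which cover counting error among regions.

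A GATA6 motif within 100 bases of the summit was found in 329 of the 533 regions (61.7%, interval 57.5 to 65.8), a SOX17 motif in 237 (44.5%, 40.3 to 48.7), an OCT4:SOX2 motif in 152 (28.5%, 24.9 to 32.5) and an ESRRB motif in 78 (14.6%, 11.9 to 17.9). Among all 42403 regions these shares were 77.1%, 43.1%, 41.8% and 14.9%. Fewer of the 533 held a GATA6 motif than in the class without SOX17 (74.6%, difference -12.9 percentage points, SE 2.53, adjusted p = 0.000275, clustered fit) and in the Early class (86.2%, -24.5 points, SE 2.41, adjusted p = 6.18e-08), in the same direction on 18 and 20 of 20 chromosomes. Against the class without PTFs (66.1%) the difference of -4.41 points had an interval of -10.5 to 1.68 and did not pass the test. Windows 3 kb to either side of the 533 held a GATA6 motif in 32.2%, a SOX17 motif in 27.1%, an OCT4:SOX2 motif in 33.1% and an ESRRB motif in 12.1% of 1013 windows.

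**Figure D1:**
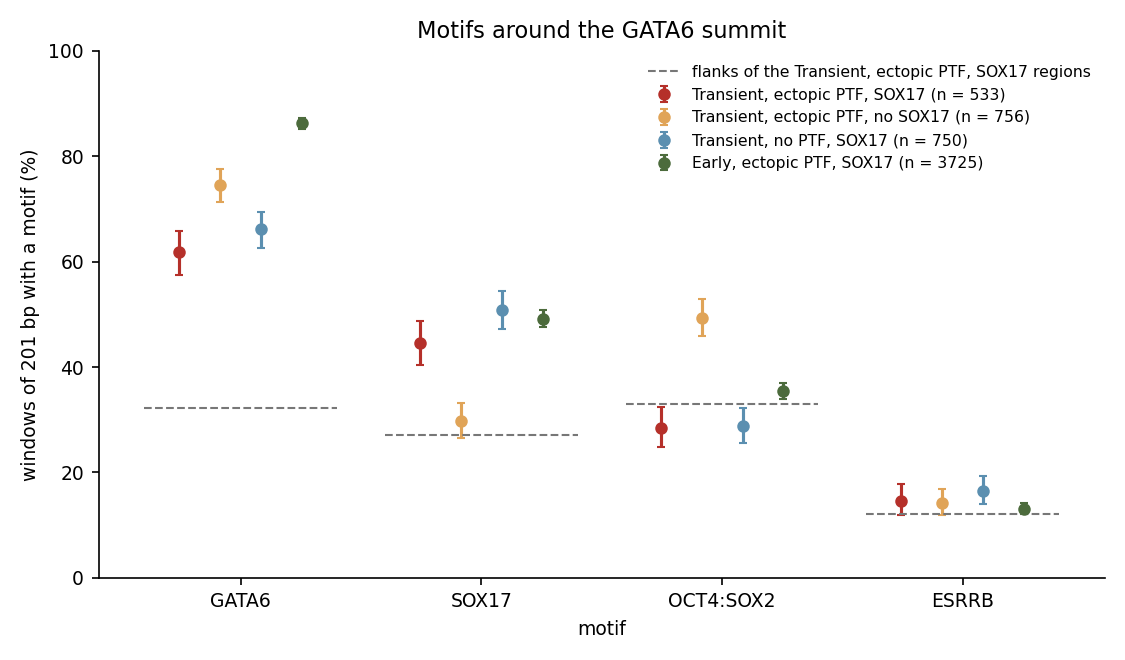
Share of windows of 100 bases to either side of the GATA6 summit that held each motif (y axis, percent) by motif (x axis) in the 533 Transient regions with ectopic PTFs and SOX17 and in the 3 comparison classes; points are shares, bars 95% Wilson intervals, and dashed lines the share in windows 3 kb from the 533 summits. The 533 regions had the lowest GATA6 share, 61.7%. Their OCT4:SOX2 share was 28.5%, against 33.1% in their own flanks, a difference that was not tested. The same 2 shares were 28.8% and 33.2% in the class without PTFs and 35.4% and 36.1% in the Early class. They were 49.3% and 36.1% in the class without SOX17.

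SOX17 motifs were more frequent in the 533 than in the class without SOX17 binding (29.8%, difference 14.7 points, SE 3.21, adjusted p = 0.000859, clustered fit), and where present they scored higher, with a mean of 9.73 against 9.05 (difference 0.68, SE 0.0958, adjusted p = 7.43e-06). They were less frequent than in the class with SOX17 but no PTFs (50.8%, -6.34 points, SE 2.19, adjusted p = 0.0251), a call lost under Fisher's exact test (log2 odds ratio -0.37) and 5 other alternatives. OCT4:SOX2 motifs were rarer than in the class without SOX17 (49.3%, -20.8 points, SE 2.75, adjusted p = 2.88e-06) and scored lower (7.87 against 9.05, difference -1.18, SE 0.224, adjusted p = 0.000243). The score difference was not called among regions closed at d0 (-0.869). Against the Early class (35.4%) the OCT4:SOX2 share was lower by a margin that several alternatives did not keep (-6.92 points, SE 2.37, adjusted p = 0.0243). The best GATA6 score was also lower in the 533, with a mean of 9.62 against 10.1, 10.2 and 10.5 in the classes without SOX17, without PTFs and Early (adjusted p = 0.0133, 0.0467 and 0.00012). None of these 3 calls was kept in windows of 50 bases to either side of the summit, and the second was lost when 11 of the 20 chromosomes were left out in turn. The share of windows with an ESRRB motif passed the test in none of the 3 comparisons of the clustered fit, and the intervals of the differences ran from -6.08 to 4.96 points. Where present, ESRRB motifs scored lower in the 533 than in the class without PTFs (8.04 against 9.06, difference -1.03, SE 0.407, adjusted p = 0.0473), a call lost when 13 of the 20 chromosomes were left out in turn.

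Taken region by region, 108 of the 533 windows (20.3%) held a GATA6 motif as the only one of the 4, 86 (16.1%) GATA6 with SOX17, 56 (10.5%) SOX17 only, 43 (8.07%) GATA6 with OCT4:SOX2 and 42 (7.88%) GATA6, SOX17 and OCT4:SOX2. All 4 motifs occurred in 8 windows and none in 83 (15.6%). More than 1 GATA6 motif was found in 118 windows. The median distance from the summit was 33 bases for GATA6, 43 for SOX17, 42 for OCT4:SOX2 and 56 for ESRRB.

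The OCT4:SOX2 matrix has a SOX part of 6 columns and an OCT part of 8 columns, with 1 column between them, and both parts were searched on both strands at spacers of 0 to 6 bases with a summed score of at least 10. The parts were directly adjacent in 131 of the 533 windows (24.6%, interval 21.1 to 28.4), against 10.3% of all 42403 regions and 7.60% of the flanking windows. The share was 13.6% in the class without SOX17 (difference 11.0 points, SE 1.46, adjusted p = 2.11e-06, clustered fit, over 21 contrasts), 6.53% in the class without PTFs (18.04 points, SE 1.60, adjusted p = 8.38e-09) and 13.9% in the Early class (10.7 points, SE 1.55, adjusted p = 5.51e-06). With the usual spacer of 1 base the picture was the opposite against the class without SOX17, with 42 of the 533 (7.88%) against 21.7% (-13.8 points, SE 1.56, adjusted p = 2.58e-07). At that spacer the 533 did not differ from the class without PTFs (5.73%, interval of the difference -0.701 to 4.995 points) or the Early class (8.64%, -3.43 to 1.90 points), and all regions had 15.8%.

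**Figure D2:**
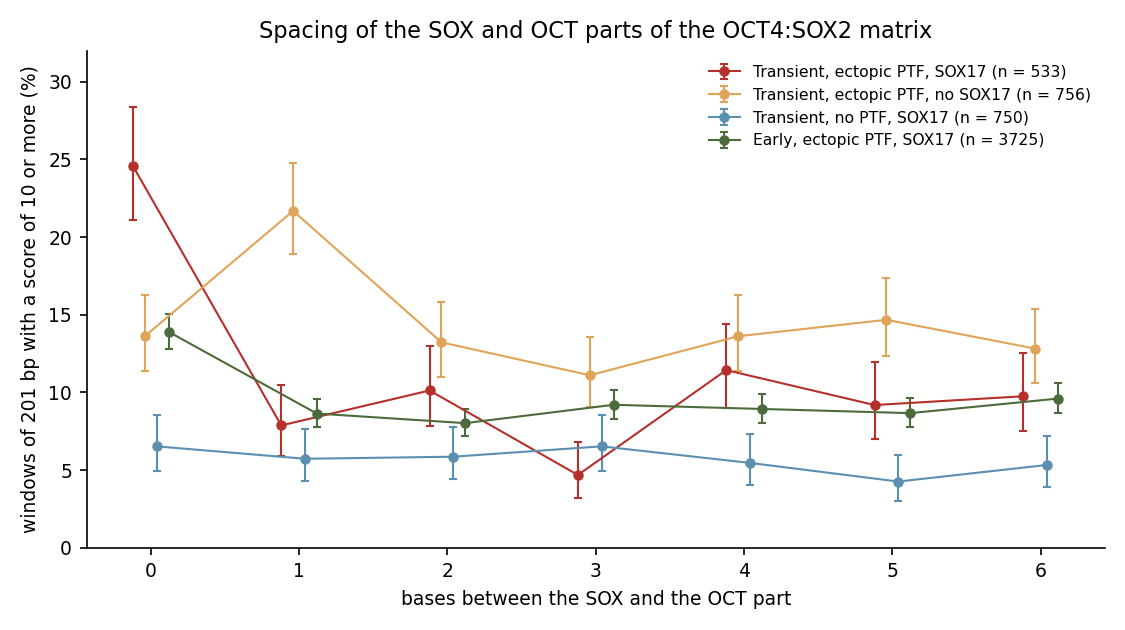
Share of summit windows with the SOX and OCT parts at a summed score of 10 or more (y axis, percent) by the number of bases between the parts (x axis) in the 533 regions and the 3 comparison classes, with 95% Wilson intervals. The 533 regions reached 24.6% where the parts were adjacent and lay between 4.69% and 11.4% at spacers of 1 to 6 bases.

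This arrangement was found and tested on the same windows, after 6-mers had been seen to differ, and the test is therefore no independent evidence. The spacers of 0 to 6 bases, score minimums of 8, 10 and 12, and several words of letters around the junction were all tried. With a minimum of 8 the adjacent share of the 533 was 37.2% against 31.1%, 14.7% and 26.0% in the classes without SOX17, without PTFs and Early, and with 12 it was 14.8% against 6.88%, 3.07% and 7.25%. The letters TTGT followed directly by ATGC, on either strand, occurred in 26 of the 533 windows (4.88%), in 6, 2 and 78 windows of these classes (0.794%, 0.267% and 2.09%) and in 0.781% of all regions. Each of the 3 differences in the adjacent share kept its direction and its call under all alternatives run.

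At the other spacers the 533 differed from the class without SOX17 at 3 bases (4.69% against 11.1%, adjusted p = 0.00168, clustered fit) and 5 bases (9.19% against 14.7%, adjusted p = 0.00501), in both with a lower share. The share at 3 bases was also lower than in the Early class (9.21%, adjusted p = 0.000176). Against the class without PTFs the 533 had the higher share not just where the parts were adjacent but also at 2 bases (10.1% against 5.87%, adjusted p = 0.0174), 4 bases (11.4% against 5.47%, adjusted p = 0.00299), 5 bases (9.19% against 4.27%, adjusted p = 0.00501) and 6 bases (9.76% against 5.33%, adjusted p = 0.0139). These differences of 4.27 to 5.98 points compare with 18.04 points for adjacent parts. Ranked among all 18 class combinations, the 533 had the highest adjacent share. Late regions with ectopic PTFs and SOX17 followed with 19.9% (interval 17.8 to 22.2), and that difference was not tested. With a score minimum of 8 these Late regions had 34.5%, against 37.2% in the 533. For parts 1 base apart the 533 ranked 14, and Transient regions with PTFs from d0 and no SOX17 had the highest share (51.5%). Of the 131 adjacent placements, 20 overlapped a SOX17 motif, 22 an OCT4:SOX2 motif, 7 a GATA6 motif and 1 an ESRRB motif, and 82 overlapped none of the 4. Their median distance from the summit was 34.5 bases, and 49 (37.4%) lay within 25 bases.

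**Figure D3:**
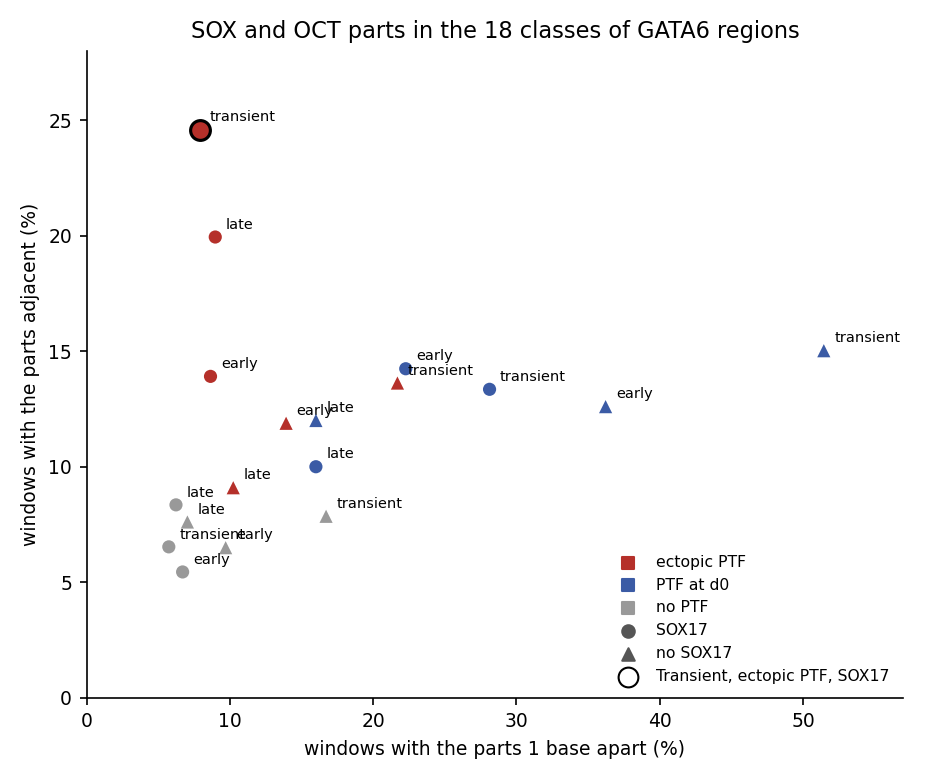
Share of windows with the SOX and OCT parts adjacent (y axis, percent) against the share with the parts 1 base apart (x axis, percent) in the 18 classes of GATA6 regions; colour gives PTF binding, shape SOX17 binding and the text the GATA6 cluster. The 533 regions, outlined in black, have the highest adjacent share (24.6%) with 7.88% at 1 base apart.

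All 2080 words of 6 bases, counted on both strands, were compared without reference to a matrix, where they occurred in at least 20 windows. Against the class without SOX17, 11 of 1892 words (0.581%) were more frequent in the 533 and 16 (0.846%) less frequent. ACAATG, the reverse complement of a SOX site, stood in 27.6% against 10.2% of windows (adjusted p = 2.23e-06, clustered fit, over 5875 tests). It was not called against the other 2 classes, which also bind SOX17. Its share was 27.2% without PTFs (adjusted p = 0.971, clustered fit) and 30.8% in the Early class (adjusted p = 0.563, clustered fit). The word ATACAA was also more frequent than in the class without SOX17, with 20.8% against 8.07% (adjusted p = 0.00545). Among words less frequent in the 533 than in that class, ATATGC stood in 7.88% against 18.9% (adjusted p = 0.00812). A GATA site, AGATAA, was found in 37.5% against 51.5% (adjusted p = 0.000119). Against the class without PTFs, 13 of 1930 words (0.674%) were more and 9 (0.466%) less frequent, led by TATGCA in 21.2% against 3.73% (adjusted p = 2.23e-06). Against the Early class, 50 of 2053 words (2.44%) were more and 66 (3.21%) less frequent. Here AGATAA stood in 37.5% against 65.96% (adjusted p = 3.54e-08). For TATGCA the shares were 21.2% and 11.2% (adjusted p = 8.52e-05). Against the class without SOX17, TATGCA was not more frequent in the 533 (21.2% against 28.4%, adjusted p = 0.132, clustered fit). ATACAA was more frequent than in the class without PTFs (10.5%, adjusted p = 0.0064, clustered fit). It was not called against the Early class (20.8% against 16.2%, adjusted p = 0.0992, clustered fit). Both words overlap the junction of the adjacent parts. TATGCA can also arise with a spacer of 1 base, where that base is T. Words that share letters are not independent of each other.

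Oct4 knockdown asks whether GATA6 binding depended on OCT4 at 48 h of Dox. It was classed by the authors from libraries that did not enter the selection, although the cluster and this class both reflect GATA6 levels at 48 h, whose part in the differences was not tested. GATA6 binding decreased in 118 of the 533 regions (22.1%, interval 18.8 to 25.9), against a background of 6.25% of all regions, and increased in 2 (0.375%, 0.103 to 1.36), against 8.57%. The decreased share exceeded that of the class without PTFs (8.13%, difference 14.0 points, SE 1.99, adjusted p = 7.28e-06, clustered fit) and of the Early class (10.8%, 11.4 points, SE 1.67, adjusted p = 8.78e-06), on 19 and 18 of 20 chromosomes. The class with ectopic PTFs but no SOX17 had 18.5%, and the difference of 3.62 points had an interval of -0.971 to 8.21. The increased share was below that of the Early class (9.53%, -9.16 points, SE 0.821, adjusted p = 2.45e-08), and below the 2.40% of the class without PTFs (adjusted p = 0.0289), a call lost without chromosome 2, 4 or 14 and among regions closed at d0. In the class with ectopic PTFs but no SOX17, 1 of 756 regions increased (0.132%). The interval of that difference was -0.394 to 0.88 points.

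The 3 decreased regions with the best GATA6 motif lay near Rd3 (score 15.2, between genes, 30.4 kb upstream), in an intron of St18 (15.0) and in an intron of Agk (14.6), each with a SOX17 motif in the window (9.0, 7.66 and 9.68). The 2 increased regions lay between genes 13.4 kb from the start of Gpx5 and in an exon of Adam15, 1.12 kb from its start, with OCT4:SOX2 scores of 7.85 and 6.71.

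Before Dox, 272 of the 533 regions were classed as closed by ATAC-seq (51.0%, interval 46.8 to 55.3), 193 as moderate and 68 as accessible (12.8%, 10.2 to 15.9). The closed share was higher than in the class without PTFs (36.9%, difference 14.1 points, SE 3.55, adjusted p = 0.00332, clustered fit) and lower than in the Early class (77.8%, -26.8 points, SE 2.44, adjusted p = 2.45e-08), while that of the class without SOX17 was 55.8% (interval of the difference -11.3 to 1.69 points). Accessible regions were more frequent than in the class without SOX17 (7.28%, 5.48 points, SE 1.57, adjusted p = 0.00904) and the Early class (1.80%, 11.0 points, SE 1.63, adjusted p = 9.66e-06). The first of these was not called among regions with no other GATA6 region within 10 kb, where the difference was 1.51 points. Against the class without PTFs the accessible share differed by 0.0913 points, with an interval of -4.32 to 4.50.

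**Figure D4:**
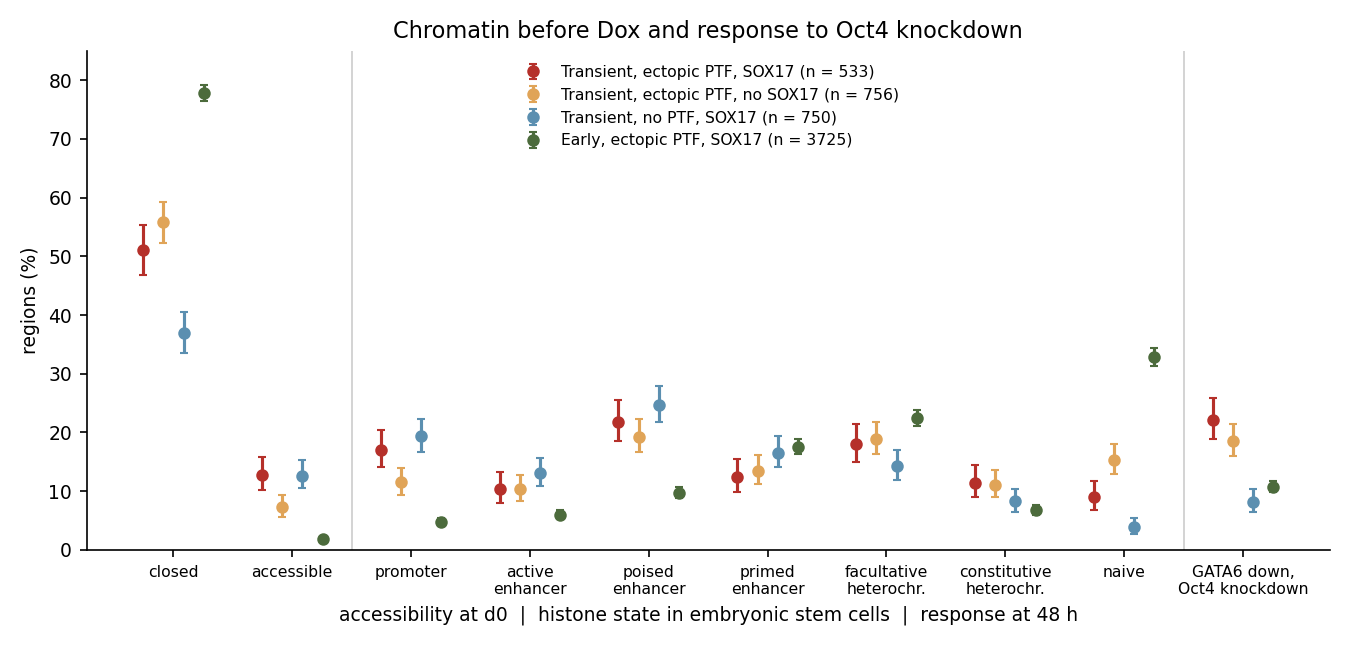
Share of regions (y axis, percent) by accessibility at d0, histone state in ES cells and decreased GATA6 binding after Oct4 knockdown (x axis) in the 533 regions and the 3 comparison classes, with 95% Wilson intervals. The 533 regions had 51.0% closed and 9.01% naive regions, below the Early class in both, and 22.1% decreased after Oct4 knockdown.

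The histone states rest on public marks of ES cells. Poised enhancer was the most frequent state in the 533, with 116 regions (21.8%), followed by facultative heterochromatin with 96 (18.01%), promoter with 91 (17.1%), primed enhancer with 66 (12.4%), constitutive heterochromatin with 61 (11.4%), active enhancer with 55 (10.3%) and the naive state with 48 (9.01%). Against the Early class, poised enhancers (9.69%, difference 12.1 points, SE 1.38, adjusted p = 3.58e-07, clustered fit) and promoters (4.70%, 12.4 points, SE 1.80, adjusted p = 8.07e-06) were more frequent and the naive state less frequent (32.9%, -23.9 points, SE 2.48, adjusted p = 1.12e-07). Poised enhancers made up 19.3% of the class without SOX17 and 24.7% of the class without PTFs (adjusted p = 0.318 and 0.119, clustered fit). Promoter states made up 19.3% of the class without PTFs (adjusted p = 0.318, clustered fit). None of these 3 differences passed the test. The promoter difference from the Early class was 0.126 points among closed regions. That subset cannot test promoter or active enhancer states. Of the 533, 1 of the 91 promoter and 1 of the 55 active enhancer regions were closed. Active enhancers (5.93%, adjusted p = 0.0266) and constitutive heterochromatin (6.77%, adjusted p = 0.0197) were also more frequent than in the Early class, but the first difference turned to -0.219 points among closed regions and the second to -0.425 points with region width as a covariate. Promoter states were also more frequent than in the class without SOX17 (11.5%, 5.57 points, SE 1.74, adjusted p = 0.0148, clustered fit). The difference of 0.368 points among closed regions has the same limit. The naive share was lower than in the class without SOX17 (15.3%, adjusted p = 0.0404) and higher than in the class without PTFs (3.87%, adjusted p = 0.0492), but these calls were lost when 12 and 13 of the 20 chromosomes, respectively, were left out in turn.

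Of the 533 summits, 103 (19.3%) were promoter summits, less than 1 kb from a transcript start, with others in introns (200, 37.5%), between genes (212, 39.8%) and in exons (18). Promoter summits exceeded those of the Early class (10.9%, 8.42 points, SE 2.52, adjusted p = 0.0114, clustered fit). The difference was -3.91 points among closed regions, a subset that cannot test it, as 7 of the 103 promoter summits were closed. Intron summits were less frequent than in the Early class (46.0%, -8.52 points, SE 2.45, adjusted p = 0.00904), with -3.76 points and no call among closed regions. A summit in a repeat was found in 12.2%, with no difference passing the test. GC content averaged 48.6% of the window, above the 46.9% of the class without SOX17 (adjusted p = 0.00641) and the 44.8% of the Early class (adjusted p = 3.58e-07) and below the 50.1% of the class without PTFs (adjusted p = 0.0266). The 533 regions were spread over 20 chromosomes, with 5 to 46 on each.

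Within the 533, closed regions more often carried a GATA6, SOX17 or OCT4:SOX2 motif, in contrasts chosen after the data were seen. GATA6 motifs stood in 69.9% of the 272 closed and 53.3% of the 261 other regions, SOX17 motifs in 52.6% and 36.0% and OCT4:SOX2 motifs in 36.8% and 19.9% (adjusted p = 0.00667 each, clustered fit, over 15 contrasts within the 533). For ESRRB motifs the shares were 15.8% and 13.4%, with an interval of the difference of -2.26 to 7.06 points (adjusted p = 0.34, clustered fit). The parts were adjacent in 30.5% and 18.4% (difference 12.1 points, SE 4.63, adjusted p = 0.0363) and 1 base apart in 12.1% and 3.45% (8.68 points, SE 2.63, adjusted p = 0.0112). GATA6 binding decreased after Oct4 knockdown in 29.8% of closed and 14.2% of other regions (15.6 points, SE 4.297, adjusted p = 0.00667). By accessibility class the decreased share was 81 of 272 closed, 36 of 193 moderate (18.7%) and 1 of 68 accessible regions (1.47%). By histone state it ran from 35.4% of 48 naive and 34.4% of 96 facultative heterochromatin regions to 5.50% of 91 promoter regions. The comparison classes also had higher values in closed than in accessible regions. In the classes without SOX17, without PTFs and Early, the decreased share went from 23.5%, 12.6% and 12.4% to 3.64%, 1.05% and 1.49%. The GATA6 motif share went from 83.4%, 80.9% and 88.0% to 29.1%, 36.8% and 71.6%. These values of the comparison classes were not tested.

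**Figure D5:**
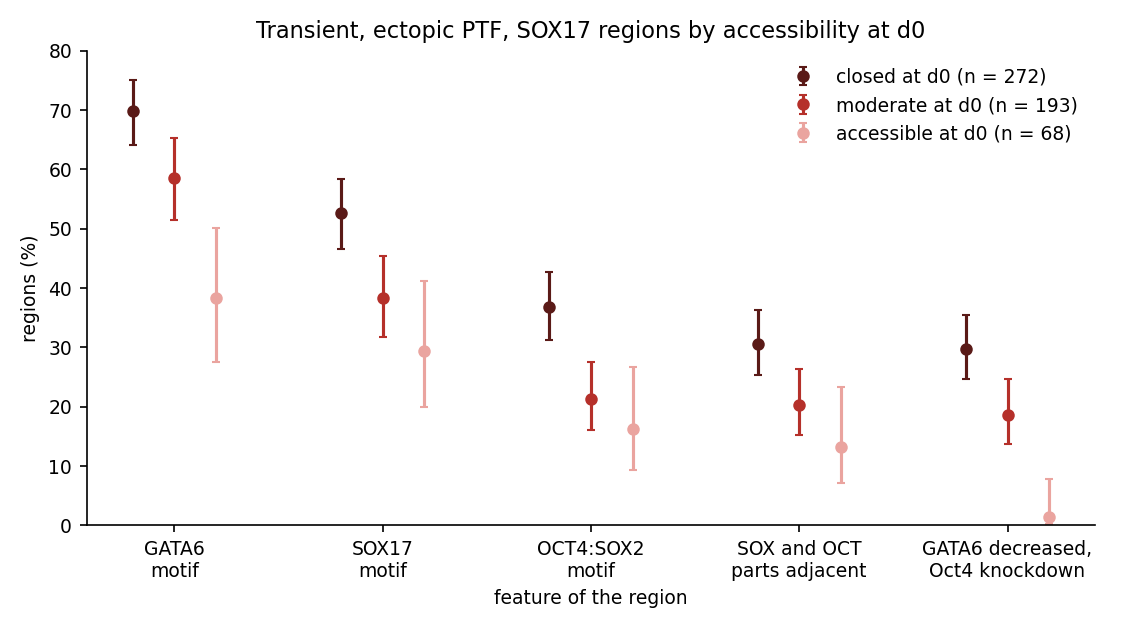
Share of the 533 regions (y axis, percent) with each motif, with the SOX and OCT parts adjacent and with decreased GATA6 binding after Oct4 knockdown (x axis), by accessibility class at d0, with 95% Wilson intervals. Each share was highest in closed regions, and 1.47% of accessible regions had decreased GATA6 binding.

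Regions with the parts adjacent were closed in 63.4% against 47.0% of those without (16.3 points, SE 6.43, adjusted p = 0.0375, clustered fit) and more often held an OCT4:SOX2 motif (41.2% against 24.4%, adjusted p = 0.0121), whose matrix shares its columns. GATA6 binding decreased after Oct4 knockdown in 26.0% of them against 20.9% of those without, and this difference of 5.06 points had an interval of -1.67 to 11.8. Nor did the decreased share pass the test by the presence of a GATA6 motif (24.6% with, 18.1% without), an OCT4:SOX2 motif (18.4% and 23.6%) or a SOX17 motif (19.8% and 24.0%).

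The 533 regions had 504 different nearest genes, and 3 genes were nearest to 3 of them each, namely Myo5b, Runx1 and Tbx3. Myo5b encodes a motor of membrane recycling, and one of its regions had the highest OCT4:SOX2 score of the 533 (16.7). Runx1 encodes a transcription factor of blood formation, and GATA6 binding decreased after Oct4 knockdown at its region 181 kb upstream. Over whole regions rather than windows, the highest deposited SOX17 score (12.8) was at a region 352 kb from the start of Prim2, a primase subunit, and the highest ESRRB score (18.5) in an intron of Unc5b, a netrin receptor.

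Lists of PrE and pluripotency genes were searched for regions within 100 kb of a transcript start. The 533 made up 1.26% of all regions, and 10 of the 198 regions near the 17 pluripotency genes (5.05%), at Dppa4, Esrrb, Klf4, Klf5, Lin28a and Tbx3. They made up 2 of 136 near PrE surface and uptake genes (1.47%), 3 of 163 near basement membrane genes (1.84%), 1 of 82 near Nodal and WNT genes (1.22%) and 0 of 95 near FGF and ERK feedback genes. Klf4 and Klf5, Krüppel-like factors of the naive network, had a region 121 and 169 bp upstream of the start, both accessible at d0 and in the promoter state. Lin28a, an RNA-binding protein gene of pluripotent cells, had a region 804 bp upstream and 2 more within 43.2 kb, and Tbx3, a T-box factor of the naive network, had 3 within 76.1 kb. None of the 10 regions near pluripotency genes was classed as changed after Oct4 knockdown. Of all 533, 22.1% decreased and 0.375% increased, and of all 42403 regions 6.25% and 8.57%. A count among 10 regions is too small to tell apart from these shares, and no difference was tested.

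Among genes of the PrE, Amn, a subunit of the cubilin receptor for uptake in visceral endoderm, had a region 2.90 kb upstream with a GATA6 motif of 10.9. Col4a2, a collagen chain of basement membranes, had 2 regions in its introns, with GATA6 motifs of 8.60 and 12.5. GATA6 binding decreased after Oct4 knockdown at the Amn region and at both Col4a2 regions, which also lie near Col4a1. The regions within 100 kb of Lama5, Apoe and Sox7, and of Lefty2 from the Nodal and WNT list, were not classed as changed. The region near Apoe lay 31.9 kb from its start, 670 bp from a start of Clptm1. That near Sox7 lay 82.8 kb from its start, 506 bp from a start of Pinx1.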

How the data were processed

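The deposited table of GATA6 regions was used, which gives 42403 regions on mm10 (GRCm38). The authors aligned reads with bowtie2, called peaks with MACS2 on merged replicates, kept peaks also called in each replicate, and grouped regions by k-means of input-normalised GATA6 signal and by the presence of PTF and SOX17 peaks. Accessibility classes rest on ATAC-seq at d0. The Oct4 knockdown class came from DESeq2, run by the authors. The deposited motif score is the FIMO log-odds score of the best match to a JASPAR matrix in a region, without normalization. Of 105 columns, 75 were not used, mostly signal values that match no library of this series, and none of the 30 used gives counts, so depth is unknown. No MNase value was analysed.

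The members, gene lists, named regions and comparisons were chosen with earlier results of these data known. The 4 scoring matrices were recovered from the deposited best motifs (13, 9, 15 and 11 columns for GATA6, SOX17, OCT4:SOX2 and ESRRB, largest residual 5.20e-05). On rescanning whole regions, presence matched the table for 98.5% to 99.6% of them. For SOX17, 13 matrix cells were never seen in a best motif. Windows of each summit and 100 bases to either side were then scanned on both strands, equal scores going to the leftmost match, and control windows lay 3 kb to either side outside GATA6 regions. Summits were annotated with GENCODE M21, and promoter meant within 1 kb of a transcript start. A least-squares fit over all regions, with 18 class levels and standard errors clustered by chromosome (20 degrees of freedom), took the place of the Fisher's exact tests named in the study's methods, which were kept as an alternative. It was tested on simulated data. P-values were two-sided and adjusted by the Benjamini-Hochberg procedure within each family (75 contrasts of classes, 21 of spacers, 15 within the members and 5875 of words). The named regions were the best scores per motif, the best windows with GATA6, SOX17 and OCT4:SOX2 motifs, the best GATA6 motifs among regions changed after Oct4 knockdown, regions within 100 kb of listed genes, and genes nearest to at least 3 members. Some results named by this rule are not reported here. The analysis of adjacent SOX and OCT parts and its alternatives were added after the data were seen. So were the comparison of words and the contrasts within the members. Other alternatives were window length, motif score, region width, blocks of 5 Mb, and leaving out promoter summits, regions with neighbours within 10 kb, regions not closed, or each chromosome. The fits ran in NumPy 2.4.6 and SciPy 1.17.1 under Python 3.11.15, with pandas 2.3.3 for tables, pysam 0.24.0 for the genome and matplotlib 3.10.9 for plots.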

Additional observations from a re-analysis of the deposited data

How the results depend on the processing

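Regions, not libraries, were the units, so the counting of regions and the dependence between neighbours limit the precision. Classes rest on peak calls whose depth is unknown here. Closed and promoter regions differed in many measures, and values that moved when only closed regions were kept cannot be told apart from the mix of accessibility classes. No paired analysis was possible because no library, and so no replicate number, entered a test. The adjacent arrangement kept its direction and call in all 3 comparisons under every alternative run, with differences of 6.06, 22.5 and 11.2 points at a score minimum of 8, 7.94, 11.8 and 7.57 at 12, 4.08, 4.61 and 2.78 with the fixed letters, and 15.4, 23.3 and 15.1 among closed regions, in the classes without SOX17, without PTFs and Early. The decreased share after Oct4 knockdown likewise kept both of its calls under each alternative run. The differences below are in percentage points, in score units for scores or in log10 units for distances, and the cause of a change was not tested. Those not listed kept direction and side of the threshold.

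With Fisher's exact test (log2 odds ratios), SOX17 motif -0.367 lost its call against the class without PTFs. Primed enhancer -0.594 and facultative heterochromatin -0.400 gained a call against the Early class. With the fixed letters, parts 1 base apart -0.969 lost its call against the class without SOX17. Parts 1 base apart 0.267 turned sign against the Early class. With region width as a covariate, active enhancer -0.407 and increased after knockdown -0.414 turned sign against the class without SOX17. OCT4:SOX2 motif 0.1998 turned sign, naive 3.96 lost its call, and constitutive heterochromatin 4.56 gained a call against the class without PTFs. Constitutive heterochromatin -0.425 turned sign, while facultative heterochromatin -7.69 and SOX17 motif -7.54 gained a call against the Early class. With motifs at or above the median best score, ESRRB motif -1.79 turned sign against the class without SOX17. SOX17 motif -2.53 lost its call, while ESRRB motif -3.31 gained a call against the class without PTFs. ESRRB motif -0.169 turned sign, while OCT4:SOX2 motif -2.40 lost its call against the Early class. Among closed regions, primed enhancer 1.14, facultative heterochromatin 0.754, promoter summit -2.88, intron summit 0.516, intergenic summit 2.50 and log10 distance to a start 0.00536 turned sign, while promoter state 0.368, naive -9.13, GATA6 score -0.386 and OCT4:SOX2 score -0.869 lost their call against the class without SOX17. Primed enhancer 0.660, promoter state 0.368, facultative heterochromatin -2.65, OCT4:SOX2 motif 3.55 and SOX17 score -0.0576 turned sign, naive 7.18, increased after knockdown -2.52, SOX17 motif -1.58, GATA6 score -0.703 and ESRRB score -1.11 lost their call, and poised enhancer -8.79 gained a call against the class without PTFs. Active enhancer -0.219, primed enhancer 0.159, facultative heterochromatin 5.07, SOX17 motif 1.80, promoter summit -3.91, intergenic summit 7.21, ESRRB score -0.264, log10 distance to a start 0.0992 and parts 1 base apart 2.96 turned sign, while promoter state 0.126, OCT4:SOX2 motif -0.317 and intron summit -3.76 lost their call against the Early class. With a score minimum of 8, parts 1 base apart -3.54 gained a call against the Early class. With standard errors by blocks of 5 Mb, SOX17 motif -6.33 and ESRRB score -1.02 lost their call against the class without PTFs. Primed enhancer -5.20 and facultative heterochromatin -4.46 gained a call against the Early class. With deposited motifs of the whole region, ESRRB motif 5.32 gained a call against the class without SOX17. OCT4:SOX2 motif 5.39 and ESRRB motif 2.65 turned sign, while SOX17 motif -4.30 and ESRRB score -0.157 lost their call against the class without PTFs. ESRRB motif -7.79 and OCT4:SOX2 score -0.418 turned sign, while SOX17 motif -12.7 and SOX17 score -0.221 gained a call against the Early class. In windows of 50 bases to either side, GATA6 score -0.214 lost its call against the class without SOX17. SOX17 score -0.0102 turned sign, while GATA6 score -0.330 and ESRRB score -1.08 lost their call against the class without PTFs. SOX17 score 0.0788 and ESRRB score -0.230 turned sign, while OCT4:SOX2 motif -3.33 and GATA6 score -0.509 lost their call against the Early class. Without regions that had another within 10 kb, active enhancer -2.01, primed enhancer 0.465, facultative heterochromatin 1.10, increased after knockdown -0.271, ESRRB motif -0.348 and intron summit 0.697 turned sign, accessible 1.51, promoter state 3.61, naive -8.26 and GATA6 score -0.671 lost their call, and ESRRB score -1.49 gained a call against the class without SOX17. Accessible -4.05 and OCT4:SOX2 motif 0.809 turned sign, naive 7.93, SOX17 motif -9.34 and GATA6 score -0.694 lost their call, and promoter summit -10.1, OCT4:SOX2 score 0.755 and log10 distance to a start 0.224 gained a call against the class without PTFs. Primed enhancer 0.155, intergenic summit 2.05, repeat summit 1.16 and ESRRB score -0.691 turned sign, while active enhancer 1.21, OCT4:SOX2 motif -5.21, promoter summit 4.50 and log10 distance to a start -0.113 lost their call against the Early class. Without promoter summits, active enhancer -0.371, primed enhancer 0.179 and intergenic summit 0.717 turned sign, while promoter state 2.20, naive -6.29 and GATA6 score -0.469 lost their call against the class without SOX17. Accessible -1.06, promoter state 0.919 and OCT4:SOX2 motif 0.102 turned sign, while naive 6.27 and GATA6 score -0.518 lost their call against the class without PTFs. Intergenic summit 4.02, SOX17 score 0.0423 and ESRRB score -0.0650 turned sign, while active enhancer 4.14, OCT4:SOX2 motif -4.43, intron summit -5.16 and log10 distance to a start -0.0127 lost their call against the Early class. When each chromosome was left out in turn, the differences that turned sign, lost or gained a call against the class without SOX17 ranged for active enhancer -0.786 to 0.488, facultative heterochromatin -2.15 to 0.0650, constitutive heterochromatin -0.392 to 1.07, naive -7.99 to -5.33, ESRRB motif -0.280 to 1.39, intergenic summit -2.40 to 0.561 and ESRRB score -0.801 to -0.444. Against the class without PTFs they ranged for accessible -0.811 to 1.06, primed enhancer -5.29 to -3.29, constitutive heterochromatin 2.16 to 4.10, naive 3.91 to 6.03, increased after knockdown -2.31 to -1.70, OCT4:SOX2 motif -1.71 to 1.65, promoter summit -6.60 to -3.45, intron summit -3.50 to 0.239, intergenic summit 4.22 to 6.61, repeat summit -4.98 to -3.15, GATA6 score -0.620 to -0.454, SOX17 score -0.0203 to 0.0950, OCT4:SOX2 score 0.338 to 0.608, ESRRB score -1.20 to -0.759 and log10 distance to a start 0.0796 to 0.149. Against the Early class they ranged for active enhancer 3.50 to 5.22 (call lost without chromosome 11), primed enhancer -6.10 to -4.09, facultative heterochromatin -5.58 to -3.55, SOX17 motif -6.10 to -3.79, intergenic summit -1.60 to 0.526, SOX17 score -0.0282 to 0.0358 and ESRRB score -0.128 to 0.140.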

Other observations

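The adjacent SOX and OCT parts stood in 28.8% of the 212 regions between genes, 25.5% of the 200 in introns, 14.6% of the 103 promoter regions and 4 of the 18 in exons. Among promoter regions 6.80% were closed at d0, against 64.6% of regions between genes and 60.0% of those in introns. GATA6 binding decreased after Oct4 knockdown in 28% of intron regions, 21.7% of regions between genes and 9.71% of promoter regions. These values were not tested.

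The share decreased after Oct4 knockdown, split by the adjacent parts, was 26.0% with and 20.9% without them in the 533 regions. The same split gave 20.5% and 9.20% in Early regions with ectopic PTFs and SOX17, 9.71% and 19.9% in Transient regions with ectopic PTFs but no SOX17, and 2.04% and 8.56% in Transient regions with SOX17 but no PTFs. Differences between the classes in this split were not tested.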
